A study of Mus musculus with 6 samples.

Results

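The genes of the proteasome were followed through the cells of the mouse testis. Members were all genes in the feature tables whose symbol is Psma, Psmb, Psmc, Psmd, Psme, Psmf or Psmg followed by a digit, without Psmc3ip, which is a recombination factor and not a proteasome gene. This gave 49 of 32285 genes, taken by symbol alone, although the rule was set with earlier results of these data known. They comprise 7 constitutive alpha subunits and the testis form Psma8, 7 constitutive beta subunits, 3 immune beta subunits and the thymus form Psmb11, 6 ATPases and 11 other subunits of the regulatory cap, 3 genes of the PA28 alpha and beta activators, Psme3 (PA28 gamma), Psme4 (PA200), the inhibitor Psmf1 (PI31) and 7 assembly chaperones. The 31 constitutive alpha, beta, ATPase and cap genes are called core subunits below.

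Dissociated cells of whole testes were profiled singly in droplets (10x Genomics, 3′ version 3 chemistry), with 1 RNA library from both testes of each mouse. All mice were C57BL/6J males, and the labels give 11 weeks as their age. The 3 control mice were fed normally. The 3 nicotine mice had nicotine at 200 µg/mL in their drinking water from the age of 3 weeks, over 8 weeks. The mouse is the replicate throughout.

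The proteasome is a protease complex that degrades proteins tagged with ubiquitin. Its barrel is built from rings of alpha and beta subunits, of which Psmb5, Psmb6 and Psmb7 carry the catalytic sites, and caps of ATPases and lid subunits unfold the substrate and feed it in. Immune cells and cells exposed to interferon exchange the catalytic subunits for Psmb8, Psmb9 and Psmb10, while male germ cells use the alpha subunit Psma8 in place of Psma7 and load the activator PA200, which is known for the removal of acetylated histones in spermatids.

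The 6 libraries held 67853893 to 88329607 unique molecular identifiers (UMIs, each counting 1 captured RNA molecule), and 52658 cells were kept. Clustering without the members and the other pathway genes gave 43 clusters, of which those named from marker genes fell into 11 classes. They are called -like because the names were rebuilt from markers. The 9 Leydig markers summed to 36218 counts per 1000000 UMIs (CPM) in Leydig-like cells and the 11 macrophage markers to 18052 CPM in macrophage-like cells. Germ stages were less distinct. The 12 pachytene markers summed to 12611 CPM in pachytene-like cells but to 17447 CPM in diplotene or dividing cells. The 12 diplotene or dividing markers summed to 2121 CPM in their own class and 2565 CPM in early spermatocyte-like cells. Elongating spermatid markers exceeded the own markers in round spermatid-like (24028 against 4892 CPM) and Sertoli-like cells (28554 against 7781 CPM). Another 15313 germ cells in clusters with a low UMI count and 5280 unnamed cells were not used. The classes differ in depth: Sertoli-like cells had a median of 1153 to 1349 UMIs per mouse, against 14919.5 to 17762 in round spermatid-like cells. Spermatogonium-like cells were few (6 to 17 per mouse, 558180 UMIs in all), and macrophage-like levels rest on 5 mice because the library of nicotine replicate 1 held 3 such cells. Any pair of libraries shared 25 to 54 cell barcodes.

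Levels are CPM per mouse and class. The chemistry counts each molecule once at its 3′ end, so CPM was not divided by gene length. Differences between classes are descriptions without a test, since the classes come from the same cells, and free RNA from lysed cells can add to any class. The upstream sequences of 5 members are shown because the results turn on these genes: Psmb8, Psmb9 and Psmb10 had mean levels under 10 CPM in germ cells from early spermatocytes on, and Psmf1 and Psme3 were the members that were at least 2-fold higher in elongating than in round spermatid-like cells. Each is the 250 bases before the RefSeq start (build GRCm38.p6), 5′ to 3′ on the gene's strand, and capitals mark the motifs found. Only 1 RefSeq start per member was used. For Psmb8, Psmb9 and Psmf1 the bases shown lie inside the annotated gene, which begins further upstream, and for Psmb10 they do so in part. Sequence before those other starts was not searched.

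Psmb8, immune beta subunit, chr17:34197945-34198194, plus strand: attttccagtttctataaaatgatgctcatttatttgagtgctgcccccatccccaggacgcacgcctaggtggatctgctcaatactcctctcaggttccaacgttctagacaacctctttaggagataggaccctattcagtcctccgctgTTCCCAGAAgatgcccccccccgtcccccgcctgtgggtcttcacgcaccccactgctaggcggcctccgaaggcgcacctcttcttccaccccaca
Psmb9, immune beta subunit, chr17:34187331-34187580, minus strand: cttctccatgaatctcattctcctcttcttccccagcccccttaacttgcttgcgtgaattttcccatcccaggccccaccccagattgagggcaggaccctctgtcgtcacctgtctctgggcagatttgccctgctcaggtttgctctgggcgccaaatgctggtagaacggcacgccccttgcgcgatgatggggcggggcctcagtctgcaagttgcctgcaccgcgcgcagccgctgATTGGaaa
Psmb10, immune beta subunit, chr8:105938393-105938642, minus strand: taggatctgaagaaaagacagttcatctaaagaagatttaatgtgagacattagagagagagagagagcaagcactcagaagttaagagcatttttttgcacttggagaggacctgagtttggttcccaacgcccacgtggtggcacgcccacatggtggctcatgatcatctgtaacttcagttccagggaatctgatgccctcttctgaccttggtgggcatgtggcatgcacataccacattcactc
Psmf1, inhibitor PI31, chr2:151741311-151741560, minus strand: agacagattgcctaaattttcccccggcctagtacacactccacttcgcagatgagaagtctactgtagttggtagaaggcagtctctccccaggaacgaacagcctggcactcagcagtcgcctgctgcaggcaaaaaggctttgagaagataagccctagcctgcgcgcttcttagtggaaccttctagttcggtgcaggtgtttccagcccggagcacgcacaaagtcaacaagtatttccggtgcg
Psme3, activator PA28 gamma, chr11:101315963-101316212, plus strand: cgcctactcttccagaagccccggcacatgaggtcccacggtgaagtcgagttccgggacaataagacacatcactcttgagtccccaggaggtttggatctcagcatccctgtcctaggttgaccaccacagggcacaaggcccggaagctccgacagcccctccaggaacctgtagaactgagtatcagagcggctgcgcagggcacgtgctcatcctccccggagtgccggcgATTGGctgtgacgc

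RefSeq promoter windows of 300 bases (250 before the start and 50 after) were matched for 41 of the 49 members and searched on both strands. The interferon gamma motif GAS (TTCNNNGAA) was found in 3 of 41 (7.32%), among them Psmb8, where it begins 97 bases before the start, against 8.30% of all 32851 windows. The interferon-stimulated response element (ISRE) was in 5 of 41 (12.2%, against 3.44% of all), and these were Psmb3, Psmd4, Psmd9, Psme1 and Psmg4. The CCAAT box was in 14 of 41 (34.1%, against 37.4%), including Psmb9 at 8 bases and Psme3 at 14 bases before the start. The antioxidant response element TGACNNNGC was in 6 of 41 (14.6%, against 12.4%). The cAMP response element TGACGTCA, the site of the spermatid regulator CREM, was in 0 of 41 (against 1.79%). In the windows of Psmb10 and Psmf1 none of the 5 motifs was found.

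From spermatogonium-like to early spermatocyte-like cells the RNA of Psma7 was lower and that of Psma8 higher. Protein and the composition of the ring were not measured. Psma7, the constitutive alpha 4 subunit, had a lowest, median and highest value of 254, 339 and 585 CPM over the 6 mice in spermatogonium-like cells. In early spermatocyte-like cells the same values were 25.7, 37.8 and 44.3 CPM, a mean ratio of 0.0995 to the level before, and the mean was 4.43 ± 1.26 CPM (SD, n = 6) in late condensing spermatid-like cells. Psma8, which takes its place in germ cells, stood at 0, 23.4 and 54.7 CPM in spermatogonium-like cells and at 509, 531 and 576 CPM in early spermatocyte-like cells. The values of the mice did not overlap between these classes for either gene, and the means of Psma8 differed 19.6-fold.

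Psma8 was lower at each following step up to elongating spermatids. It was 288, 291 and 307 CPM in pachytene-like, 61.4, 69.0 and 83.1 CPM in diplotene or dividing, and 25.8, 28.7 and 29.9 CPM in round spermatid-like cells, with no overlap at any of these steps. The lowest germ cell class was elongating spermatid-like, at 14.9 ± 1.64 CPM (SD, n = 6), and late condensing spermatids were at 22.8 ± 2.38 CPM. Within the early spermatocytes the level was not even, with 630 ± 96.9 CPM in cluster 35 and 215 ± 73.7 CPM in cluster 42. The pachytene-like class was uneven too, with 408 ± 29.4 CPM in cluster 33, whose leading genes are mostly those of cluster 35, and 272 ± 22.5 CPM in cluster 6. Counted as UMIs per cell the order of these germ classes was the same, with 9.62 in early spermatocytes, 2.81 in pachytene, 1.36 in diplotene or dividing and 0.554 in round spermatids.

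As a share of the summed Psma7 and Psma8 molecules, Psma8 made up 7.02% ± 5.41 (SD, n = 6) in spermatogonium-like, 93.7% ± 1.23 in early spermatocyte-like and 94.4% ± 1.09 in pachytene-like cells. The share was 85.8% ± 1.84 in diplotene or dividing, 75.1% ± 1.65 in round spermatid-like and 70.6% ± 5.85 in elongating spermatid-like cells. Both genes were below 30 CPM in every mouse in these spermatid classes. In Leydig-like cells the share was 4.06% ± 2.26.

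Somatic classes also held Psma8 molecules, with 81.1 ± 26.0 CPM in Sertoli-like, 50.7 ± 26.5 CPM in macrophage-like (n = 5), 47.4 ± 22.8 CPM in stromal-like and 16.6 ± 9.93 CPM in Leydig-like cells. These classes overlapped each other, apart from Leydig-like against Sertoli-like cells, and Sertoli-like cells overlapped diplotene or dividing cells. Beside them, all 12 pachytene markers were detected in each of these 4 classes and summed to 12251 CPM (range 10473 to 13838) in Sertoli-like cells, 6494 CPM (4913 to 8103) in macrophage-like, 6361 CPM (4971 to 7746) in stromal-like and 2578 CPM (2201 to 2888) in Leydig-like cells. The 4 classes had the same order for Psma8 and for this sum, though macrophage-like and stromal-like values overlapped in both. Over germ classes the sum did not follow Psma8. It was 12611 CPM in pachytene-like, 17447 CPM in diplotene or dividing and 12234 CPM in round spermatid-like cells, where Psma8 averaged 294, 71.1 and 28.1 CPM. The part of free RNA in the somatic levels was not tested.

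**Figure D1:**
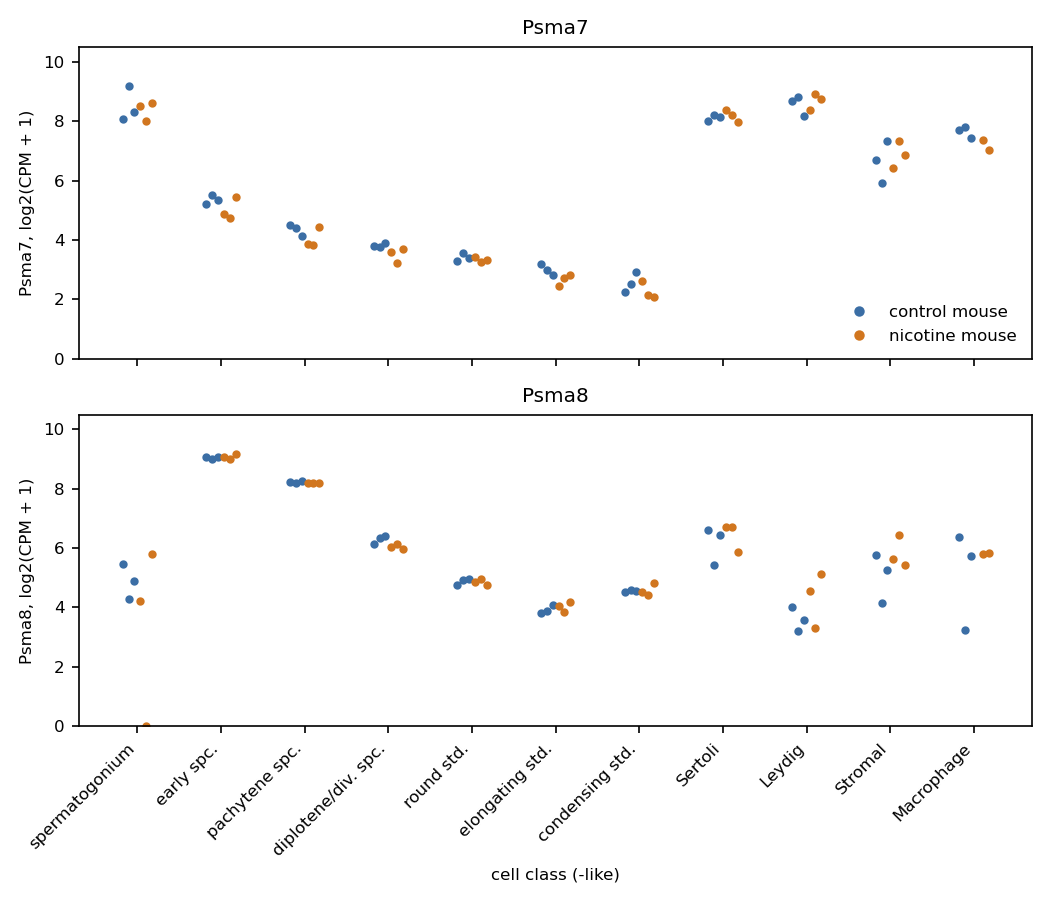
Psma7 (top) and Psma8 (bottom) in each cell class, as log2(CPM + 1), with 1 point per mouse (blue, control; orange, nicotine; 5 mice for macrophages). Psma7 is at 254 CPM or more in every spermatogonium-like sample and at 44.3 CPM or less in every early spermatocyte-like sample, while Psma8 goes the opposite way.

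The 5 genes most like Psma8 over the 11 class means (Pearson r of log2(CPM + 1), among 13866 genes with at least 20 CPM in a class) were Tesmin (r = 0.988), 1700102P08Rik (0.988), 4930426I24Rik (0.982), Agbl2 (0.980) and Prok2 (0.978). Tesmin is a germ cell gene of the cysteine-rich CXC-motif family and Agbl2 encodes a tubulin carboxypeptidase. Prok2, a secreted prokineticin, had its highest level in pachytene-like cells (329 CPM), the other 4 in early spermatocyte-like cells. The points are classes that share libraries, so no p is given.

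Psma6, another constitutive alpha subunit, departed from the other constitutive alpha genes. It was 120 ± 17.4 CPM in pachytene-like cells, 283 ± 35.04 in diplotene or dividing, 888 ± 42.5 in round, 1640.3 ± 119 in elongating and 1885 ± 109 CPM in late condensing spermatid-like cells (SD, n = 6). The mice did not overlap up to the elongating class. In elongating spermatid-like cells the other 6 constitutive alpha genes lay between 5.49 (Psma1) and 48.1 CPM (Psma3). By CPM, Psma6 was the only member with its highest level in the late condensing class. This order depends on the scale. Into elongating and then late condensing cells, the mean log2 change of Psma6 CPM was 0.88 and 0.20. The mean UMIs per cell differed by -1.10 and -1.20 on the log2 scale at the same steps. Counted per cell, Psma6 therefore did not rise there.

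The catalytic beta subunits were present in all classes. Psmb5, the chymotrypsin-like subunit, ranged from 16.5 ± 0.739 CPM in elongating spermatid-like to 293 ± 29.0 CPM in Leydig-like cells. Psmb6, the caspase-like subunit, was highest in diplotene or dividing cells (413, 434 and 472 CPM) and still 335 to 380 CPM in round spermatid-like cells, before 58.7 to 69.9 CPM in elongating ones. Psmb7, the trypsin-like subunit, was at 152 ± 58.8 CPM in spermatogonium-like, 150 ± 26.1 in early spermatocyte-like and 15.4 ± 1.56 CPM in elongating spermatid-like cells. Only the last of these 3 Psmb7 levels lay apart from the others.

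Their immune counterparts had their highest means in macrophage-like cells. That class also held lymphocyte markers: all 9 were detected and summed to 454 CPM (range 188 to 847). The next highest mean of that sum was 85.5 CPM, in late condensing spermatid-like cells. The part of lymphocyte RNA in the macrophage-like values was not tested. Psmb8 was at 74.9, 110 and 137 CPM there (lowest, median and highest of 5 mice), at 5.73, 11.9 and 18.02 CPM in Leydig-like and at 0, 13.7 and 36.7 CPM in stromal-like cells. The macrophage-like values stood above those of every other class, and Leydig-like and stromal-like values overlapped. Psmb9 was at 55.4, 89.9 and 111 CPM in macrophage-like, 4.23, 12.2 and 17.98 CPM in Leydig-like and 0 to 16.8 CPM in stromal-like cells. Psmb10 was less restricted: 39.0 ± 19.0 CPM in macrophage-like (n = 5), 32.7 ± 8.80 in Leydig-like, 30.4 ± 28.6 in spermatogonium-like and 21.2 ± 16.4 CPM in stromal-like cells, all overlapping.

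In germ cells Psmb8 and Psmb9 were at or near 0. No Psmb9 molecule was counted in the early spermatocyte, pachytene, diplotene or dividing, round or late condensing classes. In round spermatids, where 195925721 UMIs were counted, 3 counts would be 0.0153 CPM, which is the upper limit that a count of 0 allows (counting error only). Psmb8 gave 7 counts in round spermatids, 2 each in diplotene or dividing and elongating cells, 1 each in early spermatocyte-like and pachytene-like cells and 0 in spermatogonium-like and late condensing cells. Both were 0 in Sertoli-like cells, which allows up to 1.51 CPM. Psmb10 went from 9.81 ± 2.77 CPM in early spermatocyte-like to 1.15 ± 0.192 CPM in round spermatid-like cells, with no overlap.

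Psmb8 made up 53.8% of the Psmb8 and Psmb5 molecules in macrophage-like cells and 3.93% in Leydig-like cells, Psmb9 27.4% and 3.44% of those with Psmb6, and Psmb10 35.1% and 22.5% of those with Psmb7. In Leydig-like cells, all 11 macrophage markers were detected and summed to 131 CPM (range 3.60 to 368), against 18052 CPM in macrophage-like cells; the part of macrophage RNA in the Leydig-like values was not tested. Psmb11, the thymus subunit, had at most 6 counts in any class.

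**Figure D2:**
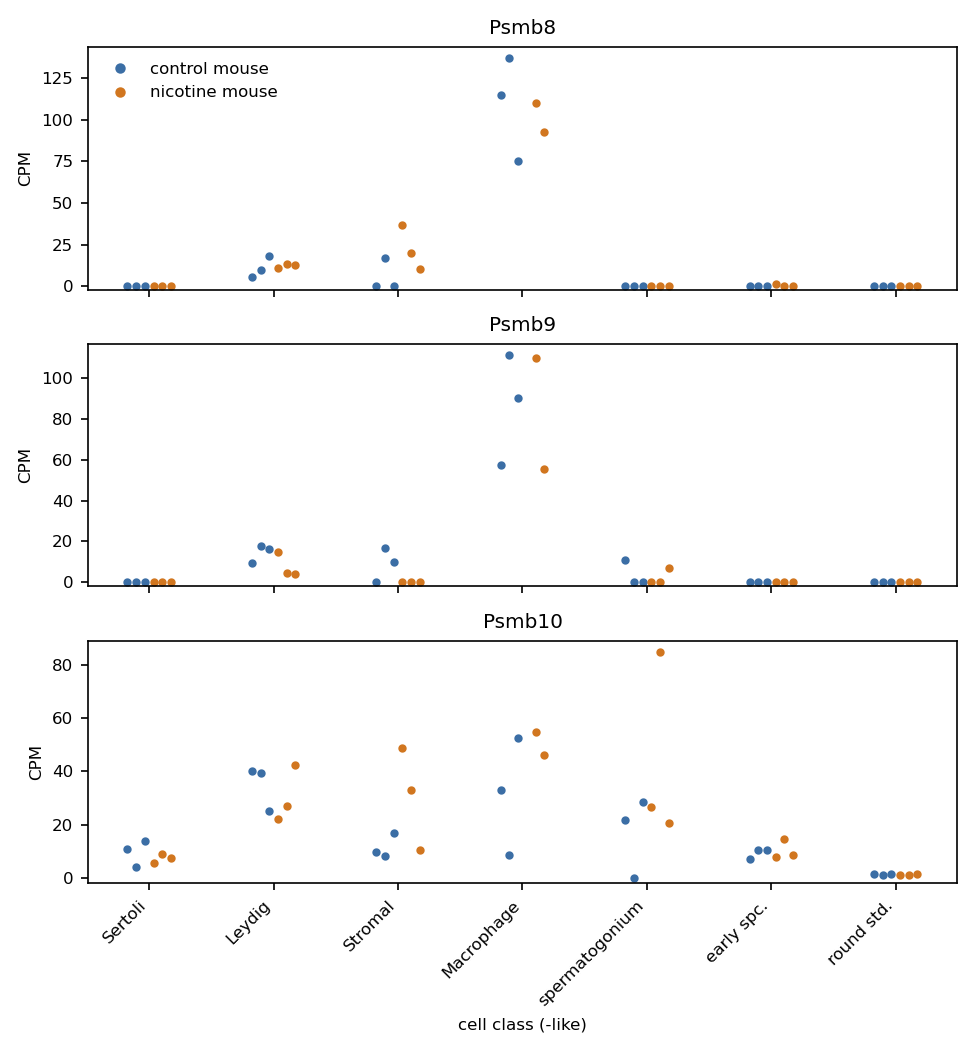
CPM of Psmb8, Psmb9 and Psmb10 in the 4 somatic classes and 3 germ cell classes, 1 point per mouse (blue, control; orange, nicotine; 5 mice for macrophages). Psmb8 and Psmb9 stand apart in macrophage-like cells, from 74.9 and 55.4 CPM upward, while Psmb10 overlaps between 3 somatic classes and spermatogonium-like cells.

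Antigen processing genes of the interferon response were set beside these subunits. Tap1, a subunit of the peptide transporter, was at 37.6 CPM in macrophage-like and 9.69 CPM in Leydig-like cells, without overlap. Its partner Tap2 was at 28.8 and 18.9 CPM, with overlap, and neither had a mean above 0.380 CPM in any germ cell class. Of the 10 genes, 8 had their highest mean in macrophage-like cells, but not all were low in germ cells: in early spermatocyte-like cells the class I gene H2-K1 was at 140 CPM and the peptide-loading factor Tapbp at 44.0 CPM. Irf1, a transcription factor induced by interferon, had a mean of 109 CPM in Leydig-like and 44.7 CPM in macrophage-like cells, with overlap.

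Of the cap ATPases, Psmc3 and Psmc2 stood above the other 4 in spermatids. Psmc3 went from 514 ± 66.4 CPM in pachytene-like to 970.3 ± 53.1 CPM in diplotene or dividing cells and was 703 ± 17.7 CPM in round spermatids. Psmc2 was 313 CPM in diplotene or dividing, 341 in round and 289 in elongating spermatids. Psmc1, Psmc4, Psmc5 and Psmc6 lay between 4.62 and 23.6 CPM in elongating spermatids. Among the lid and base genes Psmd8 and Psmd4 stayed highest there (292 and 89.5 CPM), while Psmd14, the deubiquitinase of the lid, went from 198 CPM in spermatogonia to 9.59 CPM in round spermatids and 4.60 CPM in elongating ones.

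The activators differed in where they were present. Psme1 and Psme2, the interferon-induced PA28 alpha and beta subunits, were at 188 ± 29.4 and 103 ± 18.7 CPM in Leydig-like cells and at 67.8 ± 13.3 and 81.5 ± 39.5 CPM in spermatogonium-like cells. In early spermatocyte-like cells they were at 1.21 and 3.32 CPM, and in the later germ cell classes neither exceeded 0.825 CPM. Reads of Psme2 and its near-identical copy Psme2b cannot be fully told apart; Psme2b had at most 2 counts in a class. Psme3, the nuclear PA28 gamma, was lowest in diplotene or dividing (15.0, 19.6 and 21.5 CPM) among the classes up to meiosis, and then 53.6, 67.8 and 83.7 CPM in round and 130, 147 and 162 CPM in elongating spermatids. In late condensing spermatids it was at 11.1, 13.3 and 15.7 CPM, a mean ratio of 0.0904 to the level before.

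Psme4, whose product PA200 caps the barrel in germ cells, was broadly present, and its range over classes was narrow. The highest class was pachytene, at 285, 323 and 353 CPM, above diplotene or dividing cells at 223, 241 and 259 CPM without overlap. Early spermatocyte (213 ± 26.0 CPM), stromal (208 ± 19.2), round spermatid (203 ± 14.1), macrophage (198 ± 59.7, n = 5), spermatogonium (187 ± 25.0) and elongating spermatid (182 ± 4.82) classes followed, and neighbours in this order overlapped. Leydig (154 ± 29.5) and Sertoli (154 ± 26.9) classes came next, overlapping each other and the elongating class, and late condensing spermatids (121 ± 2.68) had the lowest mean. The order within germ cells depends on the scale: as UMIs per cell, Psme4 was higher in diplotene or dividing (4.55), round (3.99) and early spermatocyte cells (3.86) than in pachytene (3.06). The pachytene class was also uneven, with 377 ± 14.7 CPM in cluster 6 and 205 ± 9.15 CPM in cluster 33.

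The 5 genes most like Psme4 over the class means were Gm47096 (r = 0.899), Whamm (0.891), Cep350 (0.891), Trim39 (0.884) and Chkb (0.870), all highest in pachytene. Whamm encodes an actin nucleation factor, Cep350 a centrosomal protein, Trim39 a ubiquitin ligase and Chkb a choline kinase.

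Psmf1 encodes PI31, which binds the barrel, inhibits it in vitro and serves as an adaptor for proteasome transport. It was at 51.2, 67.5 and 77.8 CPM in pachytene, 82.8, 112 and 131 in diplotene or dividing, 371, 393 and 441 in round and 1109, 1230 and 1359 CPM in elongating spermatids. Late condensing spermatids had 482, 501 and 523 CPM. None of these neighbours overlapped. Among the round spermatid clusters Psmf1 was 171 ± 5.77 CPM in cluster 9, 321 ± 15.9 in cluster 11, 463 ± 8.13 in cluster 13 and 682 ± 13.7 in cluster 15, the same order as that of the transition protein gene Tnp1 (378 to 8593 CPM). Psme3 was highest in elongating cluster 0, at 241 ± 18.2 CPM, and 75.8 ± 8.57 CPM in cluster 1. The mean UMIs per cell differed by -1.10 on the log2 scale from round to elongating spermatids, so the scale changes these differences. As UMIs per cell, Psmf1 was 11.4 in elongating against 7.77 in round spermatids, and Psme3 was 1.34 against 1.31.

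**Figure D3:**
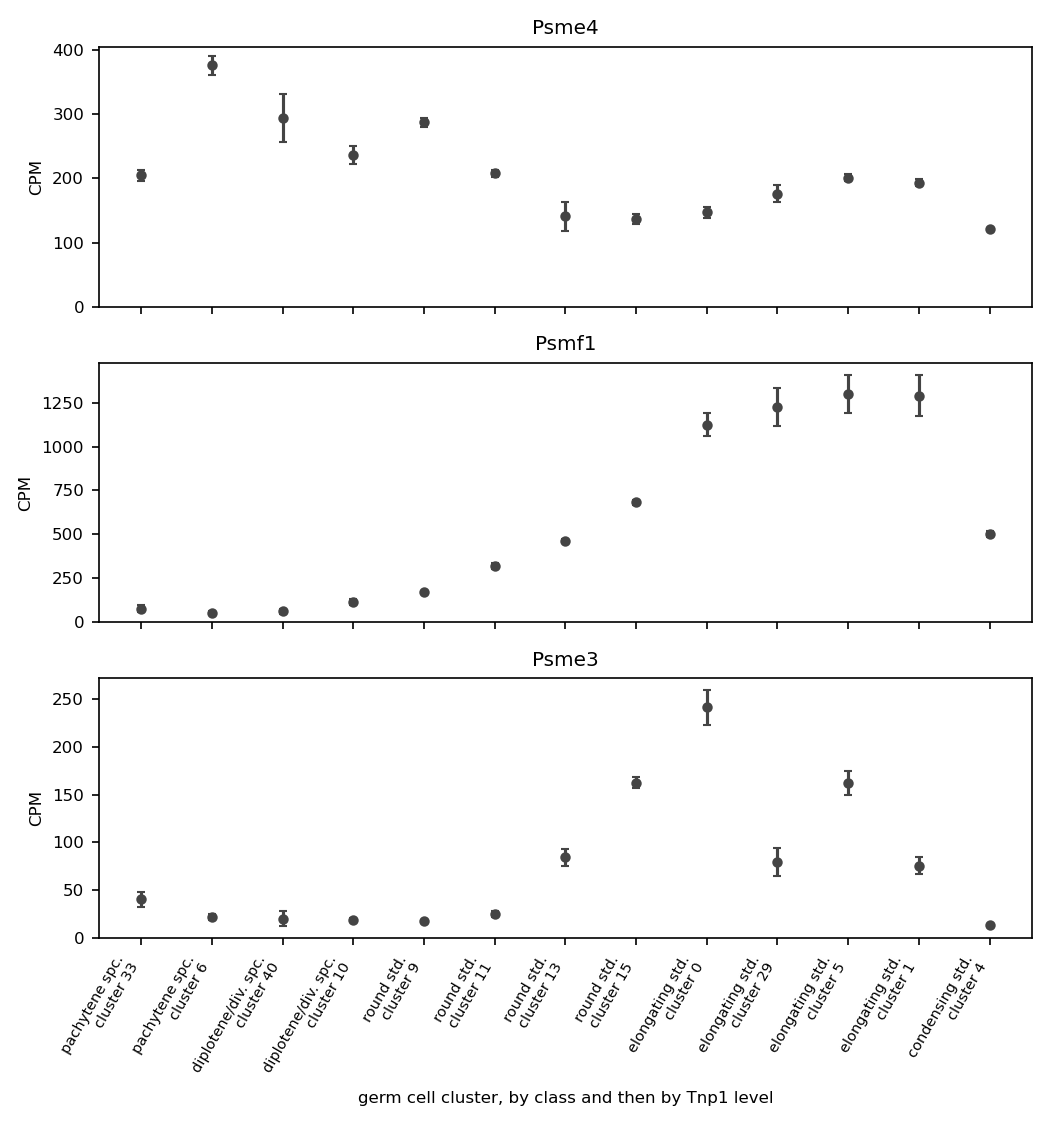
CPM of Psme4, Psmf1 and Psme3 in germ cell clusters from pachytene to late condensing spermatids, as means with SD over 6 mice, ordered by class and then by Tnp1. Psmf1 climbs from 171 CPM in round cluster 9 to 1124 CPM or more in the elongating clusters, and Psme3 peaks at 241 CPM in elongating cluster 0.

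Among the chaperones, Psmd5 and Psmd10, which help assemble the ATPase base, had separate patterns. Psmd5 was 136 ± 66.8 CPM in spermatogonium-like, 27.4 ± 5.81 in early spermatocyte-like and 3.94 ± 0.36 CPM in round spermatid-like cells. Psmd10 was at 2.98 CPM in pachytene, 47.1 in diplotene or dividing and 55.7 CPM in round spermatids. Psmg1, Psmg2 and Psmg4, chaperones of the alpha and beta rings, were between 5.80 and 8.74 CPM in elongating spermatids.

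As a sum, the 31 core subunits took 7799.6 ± 1057 CPM in spermatogonium-like cells, 6263 ± 299 in early spermatocytes, 4219.9 ± 517 in pachytene, 5469.7 ± 174 in diplotene or dividing, 4423 ± 167 in round and 3071 ± 142 CPM in elongating spermatids (SD, n = 6). Mean UMIs per cell in these classes were 8773, 18152.5, 9549, 18891, 19648.5 and 9160. The order of the sums therefore holds for CPM and not for molecules per cell. Of the 47 members with at least 20 CPM in a class, 16 had their highest level in spermatogonium-like cells, where 22.3% of all such genes did, and 8 in Leydig-like cells (8.97% of all).

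Between neighbouring germ cell classes a gene was counted as different where the means differed at least 2-fold and the 6 mice did not overlap, among genes with at least 20 CPM in either class. From spermatogonia to early spermatocytes 1 of 45 members was higher (Psma8), where 15.1% of all genes were, and 7 were lower (18.7% of all): Psmd5, Psma7, Psmb2, Psme3, Psme1, Psme2 and Psmb1. From early spermatocytes to pachytene 0 of 41 were higher (17.5% of all) and 11 lower (17.8%). From pachytene to diplotene or dividing cells 3 of 39 were higher (19.7%), namely Psmd11, Psma6 and Psmd10, and 2 lower (33.7%), Psmd1 and Psma8. Into round spermatids 3 of 39 were higher (25.2%), Psmf1, Psme3 and Psma6, and 10 lower (22.6%). Into elongating spermatids 2 of 34 were higher (10.1%), Psmf1 and Psme3, and 24 lower (56.4%). Into late condensing spermatids 1 of 27 was higher (8.03%), Psma5, and 3 lower (25.4%), Psmf1, Psmc2 and Psme3. The median log2 change of members into elongating spermatids was -1.59, against -1.28 for all genes.

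**Figure D4:**
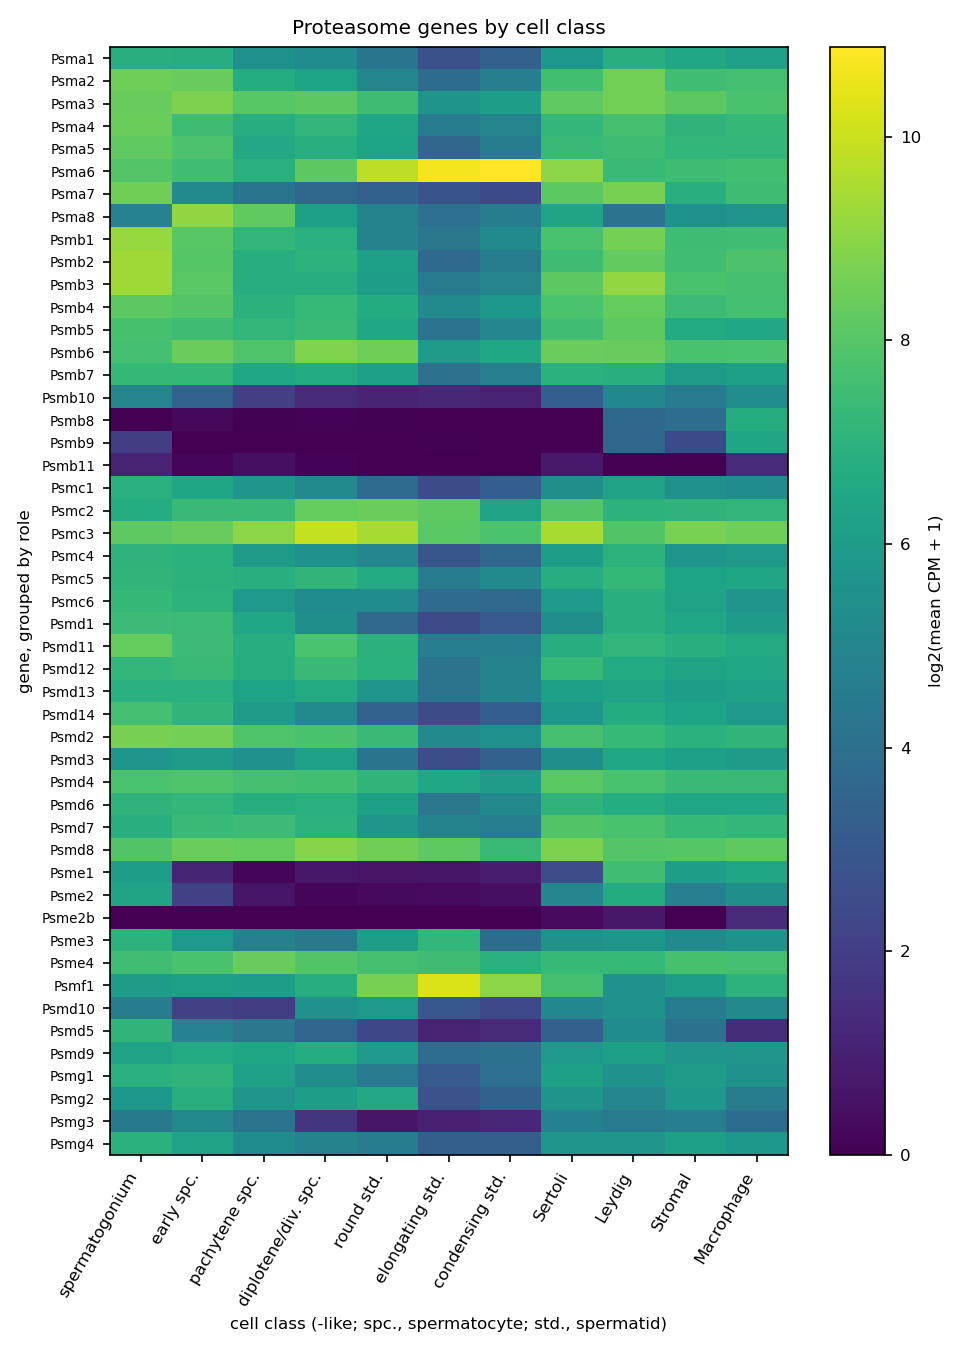
Mean level of each of the 49 members (rows, grouped by role) in each of the 11 cell classes (columns), as log2(mean CPM + 1). Most core subunits are darker in elongating and condensing spermatids (Psmb5 at 16.5 CPM in elongating ones), whereas Psma6 and Psmf1 are brightest there.

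Other genes of the pathway were counted by the same rule. Of 12 further proteasome genes, 3 were lower in early spermatocytes than in spermatogonia (Usp14, Ecpas and Txnl1) and 0 higher, where 18.7% and 15.1% of all genes were. Into elongating spermatids 4 of 8 tested were lower (Sem1, Uchl5, Zfand5 and Txnl1), where 56.4% of all genes were. Of 10 ubiquitin shuttle and Vcp genes tested from pachytene to diplotene or dividing cells, 2 were higher (19.7% of all genes), among them the shuttle protease Ddi1. Another 4 were lower (33.7%). Into round spermatids 3 of 9 were higher (25.2%), among them Ubqlnl and Ufd1, and 2 were lower (22.6%). Of 9 ubiquitin and conjugation genes tested into round spermatids, 4 were higher (25.2% of all genes), among them Uba1, Ube2a and Ube2j1. There 1 was lower (22.6%), Rps27a.

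Nicotine was compared with control in the 9 classes that had at least 20 cells in every mouse, with edgeR's quasi-likelihood test on UMI counts summed per mouse and class and Benjamini-Hochberg adjustment over all genes tested. Each library is a separate mouse, so p-values measure the spread between these mice. Members passed the test in 1 class. In pachytene-like cells 10 of 41 members tested were lower in nicotine mice and none higher, where 8.48% of all 11299 genes were called and 5.3% were called lower. The 10 were the alpha subunits Psma2, Psma4 and Psma6, the beta subunits Psmb3, Psmb4, Psmb5 and Psmb6, and the lid subunits Psmd6, Psmd8 and Psmd14. Their log2 changes ran from -0.53 to -0.37, and 37 of the 41 members had a negative value, with a median of -0.27 against -0.0049 for all genes.

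Psmd8, a lid subunit, was at 376, 401 and 326 CPM in the 3 control mice and at 249.8, 265 and 300.4 CPM in the 3 nicotine mice. The groups did not overlap, and the log2 change was -0.49 ± 0.12 (SE; adjusted p = 0.00624, edgeR). Psmb6 was at 285, 300.05 and 231 CPM against 177, 187 and 237 CPM, with overlap (log2 change -0.50 ± 0.12; adjusted p = 0.00751, edgeR). Psma4 was at 123, 133 and 120.5 CPM against 95.7, 88.6 and 102 CPM, without overlap (log2 change -0.45 ± 0.12; adjusted p = 0.0125, edgeR). Psmd14 had the largest negative value of the 10, at 82.9, 77.1 and 59.0 CPM against 43.7, 52.1 and 63.0 CPM (log2 change -0.53 ± 0.15; adjusted p = 0.0179, edgeR), again with overlap. The adjusted p of the other 6 lay between 0.010 (Psmb4) and 0.0413 (Psma6).

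The make-up of the pachytene-like class moved with this result. Its cells came from cluster 6 and from the deeper clusters 33 and 41. Of the 10 leading genes of cluster 33, 7 were also leading genes of early spermatocyte-like cluster 35 and 1 of cluster 6, so its place in the pachytene-like class is uncertain; whether it holds doublets was not tested. The deep clusters held 9 to 32 cells per mouse but gave 49.2%, 56.5% and 42.3% of the class's UMIs in the control mice and 21.4%, 17.2% and 27.3% in the nicotine mice, so that the groups did not overlap. Of the 41 members 37 were higher in the deep clusters than in cluster 6, with a median log2 difference of 0.84, and so were all 10 called members (median 1.15). In cluster 6 alone, an analysis added after seeing the data, 0 of 41 members were called by edgeR, where 0.0288% of 10406 genes were (2 members, or 4.88%, had an unadjusted p below 0.05, against 5.85% of all genes), and the members' median log2 change was 0.02. By DESeq2 the count for the whole class was 5 (Psma2, Psma4, Psmb4, Psmb6 and Psmd8), where 576 of all 11299 genes were called. It was 0 with predicted doublets kept and 0 with a minimum of 500 UMIs per cell. It was 1 without control replicate 1, 1 without control replicate 2, 16 without control replicate 3, 0 when either nicotine replicate 1 or nicotine replicate 2 was left out, and 17 without nicotine replicate 3. The share of all genes called is not given for the doublet, 500 UMI and leave-out settings. These counts therefore do not show whether the members or all genes moved.

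**Figure D5:**
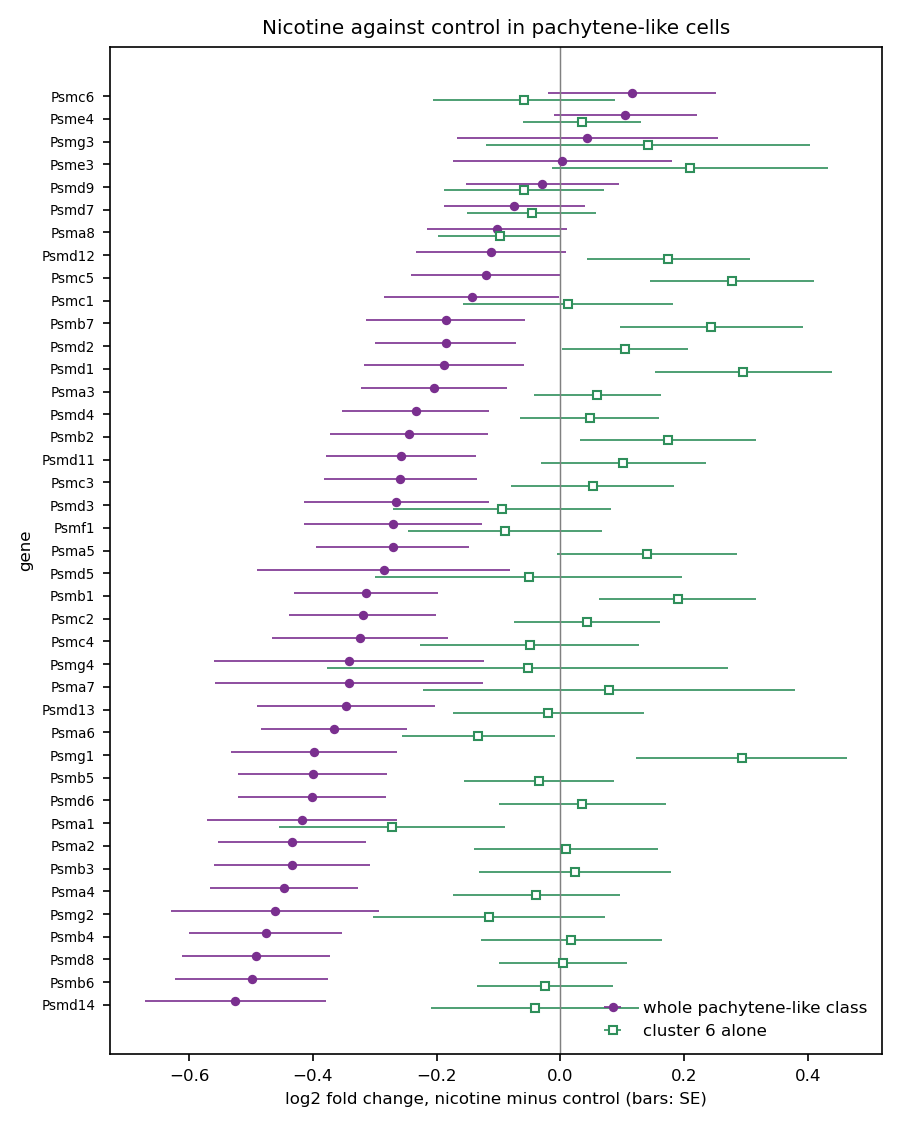
Log2 fold change of nicotine against control (bars, SE) for the members tested in the pachytene-like cells, in the whole class (filled circles) and in cluster 6 alone (open squares). In the whole class 37 of 41 values lie below 0 with a median of -0.27, and in cluster 6 the median is 0.02.

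The genes set apart by stage did not pass the test. Psma8 was at 299 ± 7.14 CPM in control and 289 ± 0.694 CPM in nicotine pachytene-like cells (SD, n = 3 each; log2 change -0.10 ± 0.11) without overlap, and at 526 ± 15.6 and 538 ± 34.01 CPM in early spermatocytes. Psme4 was at 307 ± 19.1 and 343 ± 13.7 CPM in pachytene-like cells (log2 change 0.11 ± 0.12), with all nicotine values above the control values. In the deep pachytene-like clusters Psma8 was higher than in cluster 6 (347 against 272 CPM) and Psme4 lower (222 against 377 CPM). The share of UMIs from the deep clusters differed between the groups, and its part in these values was not tested. Psmf1 was at 1219 ± 127 and 1271 ± 74.3 CPM in elongating spermatids (log2 change 0.0023 ± 0.086). Psmb10 was at 34.9 ± 8.35 and 30.5 ± 10.47 CPM in Leydig-like cells, with overlap. Psmb8 and Psmb9 passed the count filter in none of the 9 classes, and the macrophage-like class was not tested.

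In the other 8 classes edgeR called 0 members. In diplotene or dividing cells, where 4.43% of genes were called, 8 of 42 members (19.0%) had an unadjusted p below 0.05 by edgeR. This was close to the 18.7% of all genes that did. By DESeq2 it was 4 members (9.52%), against 12.3% of all genes, and DESeq2 called 0 members there. The smallest p was that of Psma5, at 104, 106 and 107 CPM in control and 122, 119 and 128 CPM in nicotine mice (log2 change 0.25 ± 0.076; adjusted p = 0.0740, edgeR). Psmf1 came next there, at 97.3 ± 13.3 against 121 ± 8.66 CPM (adjusted p = 0.0816, edgeR). In Leydig-like cells, where 0.0646% of genes were called, Psma1 had the smallest p, at 91.0 ± 15.3 against 141 ± 17.3 CPM without overlap (log2 change 0.60 ± 0.22; adjusted p = 0.874, edgeR). In Sertoli-like cells (0% of genes called) it was Psma6, at 591 ± 77.2 against 421 ± 35.3 CPM without overlap (log2 change -0.53 ± 0.16; adjusted p = 0.262, edgeR). Psma6 is also among the most abundant members in spermatids, and the 12 elongating spermatid markers summed to 18019 to 50579 CPM in the Sertoli-like cells of the 6 mice; their part in this value was not tested.

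The smallest p in each remaining class was that of Psmb7 in early spermatocytes (log2 change 0.30), Psma7 in elongating spermatids (-0.47), Psmd11 in late condensing spermatids (0.24), Psmg3 in round spermatids (0.56, at under 0.8 CPM in every mouse) and Psmb3 in stromal-like cells (0.48). Genes called were 0% in each of these classes except stromal-like cells (0.127%). At an unadjusted p below 0.05 by edgeR there were 2 of 41 members in early spermatocytes (2.65% of all genes), 3 of 43 in elongating spermatids (4.68%), 1 of 43 in Leydig-like (4.70%) and 1 of 38 in Sertoli-like cells (7.55%). There were 0 in late condensing (6.28%), round (2.54%) and stromal-like classes (9.27%). By DESeq2 the counts in the same order were 0, 2, 1, 1, 0, 0 and 0. The shares of all genes were 0.578%, 1.54%, 1.81%, 3.82%, 1.71%, 1.42% and 3.31%. DESeq2 called 0 members in all 8 classes.

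The difference in the nicotine effect between round spermatid-like and pachytene-like cells was tested directly, with the mouse as a block in edgeR's quasi-likelihood test. It passed for 9 of 44 members, all with a more positive value in round spermatids, where 4.44% of 18707 genes were called and 3.58% in that direction. DESeq2 called 2 members (Psmb6 and Psmd8) and 413 of all 18707 genes. The count was 2 without control replicate 1, 3 without control replicate 2, 3 when either nicotine replicate 1 or nicotine replicate 2 was left out, and 19 without nicotine replicate 3. With cluster 6 in place of the pachytene-like class 0 of 43 members were called by edgeR (0.113% of genes), and 2 members (4.65%) had an unadjusted p below 0.05, against 6.15% of all genes.

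Other pathway genes were called by edgeR in diplotene or dividing cells and in pachytene-like cells. The diplotene or dividing class joins cluster 10 with the deeper cluster 40, which gave 10.3%, 15.6% and 12.6% of its UMIs in control and 5.76%, 5.36% and 6.71% in nicotine mice. In cluster 10 alone, an analysis added after seeing the data, 0.596% of 12756 genes were called, and of the 41 members 0 were called and 4 (9.76%) had an unadjusted p below 0.05 (12.7% of all genes). In the whole class Ddi1 rose from 44.6 ± 2.19 to 63.5 ± 6.82 CPM (log2 change 0.55 ± 0.10; adjusted p = 0.00808, edgeR), and Ube2a, a ubiquitin-conjugating enzyme, from 28.7 ± 2.72 to 39.5 ± 7.64 CPM. Pomp, the maturation factor of the barrel, fell from 93.2 ± 13.1 to 69.8 ± 4.03 CPM (log2 change -0.39 ± 0.098; adjusted p = 0.0337, edgeR). In cluster 10 alone the adjusted p was 0.0574 for Ddi1, 0.201 for Ube2a and 0.130 for Pomp (edgeR). With each of the 6 mice left out in turn Ddi1 was called 3 times, Ube2a 2 times and Pomp 1 time. In pachytene-like cells Rps27a, Ube2b and Ube2d3 were lower in nicotine mice, in the class whose cluster make-up differed, and in cluster 6 alone their adjusted p was 0.988 or more (edgeR).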

How the data were processed

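The deposited tables hold raw UMI counts per gene and cell barcode, which the authors made with Cell Ranger 7.2.0 on GRCm38 (mm10), per the submitters' processing notes. Cells were kept from 1000 UMIs and 250 genes upward if mitochondrial counts made up no more than 20%, and the cells with the highest Scrublet scores were removed as predicted doublets, at 0.8% per 1000 cells of a library. Cells were clustered with scanpy 1.11.5 (2000 variable genes without the members or pathway genes, 30 principal components, 15 neighbours, resolution 1) and clusters were named from marker lists. Counts were summed per mouse and class. Levels are CPM of these sums, given for classes with at least 5 cells in a mouse. Nicotine was tested with edgeR 4.0.16 (quasi-likelihood, TMM scaling, filterByExpr) in R 4.3.3 in classes with at least 20 cells in every mouse, at a Benjamini-Hochberg adjusted p of 0.05. DESeq2 1.42.0 was the alternative tool; the others were no low-count filter, other minimum UMIs, doublets kept, resolution 1.5, UMIs per cell, the replicate block and each mouse left out. The edgeR step was tested on simulated data with 200 changed genes and recovered 59.7% of those changed 2-fold and 16.4% of those changed 1.5-fold among 11332 genes of the pachytene-like class.

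The members and lists were chosen with earlier results of these data known. Named in full are the testis and immune forms with their constitutive counterparts, the activators, the members called for nicotine, the 6 members with the highest ratio of highest to median class level, the member with the smallest p in other classes, and the 5 genes most like Psma8 and Psme4; Psma6, Psmc2, Psmc3, Psmd8, Psmd4, Psmd14, Psmd10 and the Psmg chaperones were added after their values were seen. Low-UMI germ clusters and unnamed clusters were left out because their identity rests on too few molecules or markers. Some pathway genes are not reported here. Intervals and floors cover counting error only.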

Additional observations from a re-analysis of the deposited data

Results flagged for a closer look

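The nicotine effect differed between round spermatid-like and pachytene-like cells for 9 members, by a test of the difference itself (edgeR's quasi-likelihood test with the mouse as a block, Benjamini-Hochberg adjusted). The log2 differences, round minus pachytene, were 0.53 for Psmb6, 0.56 for Psmb3, 0.48 for Psmd8, 0.45 for Psmb4, 0.57 for Psmd14, 0.44 for Psmd6, 0.43 for Psmb1, 0.39 for Psma4 and 0.41 for Psma2. These are 4 constitutive beta subunits, 2 constitutive alpha subunits and 3 lid subunits. The share of the pachytene-like class's UMIs from its deep clusters was 49.3% ± 7.13 (SD, n = 3) among control mice, against 22.0% ± 5.09 (SD, n = 3) after nicotine, and 0 of 43 members passed with cluster 6 in its place (edgeR; 2 members, or 4.65%, at an unadjusted p below 0.05, against 6.15% of all genes).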

How the results depend on the processing

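The number of members called for nicotine in pachytene-like cells (10) was 5 with DESeq2, 0 with predicted doublets kept, 0 with 500 UMIs per cell, 0 in cluster 6 alone and 0 to 17 with 1 mouse left out. In diplotene or dividing cells (0) it was 2 without the low-count filter (Psma6 and Psmf1), 2 with 500 UMIs per cell (Psma8 and Psmf1) and 0 to 3 with 1 mouse left out (3 without control replicate 1, 1 without nicotine replicate 1). In Sertoli-like cells (0) it was 0 to 1 with 1 mouse left out (Psma6 without control replicate 1). The difference between round spermatid-like and pachytene-like cells (9 members) was called for 2 with DESeq2, for 0 with cluster 6 alone and for 2 to 19 with 1 mouse left out. For DESeq2 and cluster 6 alone the calls over all genes are given above, and for the other settings they are not given. With cluster 6 alone the sign changed for 5 members in pachytene-like cells, to 0.0045 for Psmd8, 0.018 for Psmb4, 0.0089 for Psma2, 0.024 for Psmb3 and 0.035 for Psmd6 (log2), and for 7 in the difference, to -0.11 for Psmb4, -0.089 for Psmd8, -0.085 for Psma4, -0.015 for Psmb6, -0.10 for Psma2, -0.066 for Psmd6 and -0.15 for Psmb1. The cause of these changes was not tested.

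Counts between classes moved with the scale. As UMIs per cell, 11 members were higher and 3 lower in early spermatocytes than in spermatogonia (1 and 7 by CPM), 31 lower in pachytene (11), 20 higher and 1 lower in diplotene or dividing cells (3 and 2), 0 higher in elongating spermatids (2), and 0 higher and 9 lower in late condensing spermatids (1 and 3). The mean UMIs per cell over all genes differed by 1.05, -0.93, 0.98, -1.10 and -1.20 on the log2 scale at these steps, in this order. The share of all genes was not counted on this scale or in the settings that follow. These counts are therefore not particular to the members. With predicted doublets kept, 1 was higher and 1 lower in diplotene or dividing cells and 0 higher in late condensing spermatids. With 500 UMIs per cell these were 7 higher in diplotene or dividing cells, 1 higher in elongating and 0 higher in late condensing spermatids. With 1 mouse left out, 1 to 3 were higher in early spermatocytes (3 without nicotine replicate 2, 2 without nicotine replicate 3) and 0 to 2 in late condensing spermatids (0 without control replicate 1, 2 without control replicate 2).

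Samples share replicate numbers in the labels, but the numbers did not pair them throughout. Over 27 pairs of same-numbered samples the correlation of deviations ran from -0.15 to 0.40, and 6 were over 0.1. All 6 were of replicate 2, which correlated best with its own number in all 9 classes (0.041 to 0.40). Replicate 1 did so in 0 and replicate 3 in 2. Replicate 1 correlated best with number 3 in every class, and replicate 3 with number 1 in most. The main test had no block for such a structure. With the replicate block 8 members were called in pachytene-like and 1 (Psma6) in Sertoli-like cells. Of the counts recomputed, 215 stayed within 1.5 times, counting a 0 that stayed 0, and 41 did not. Of the single-gene results recomputed, 299 stayed the same, 113 lost their call and 2 gained one. Another 12 changed sign, and 15 level ratios moved by more than the SD between mice. Resolution 1.5 gave no late condensing class, and 2000 UMIs per cell left too few Sertoli-like and stromal-like cells to test. The spermatogonium-like and macrophage-like classes had the fewest UMIs in all (558180 and 542096), which limits their levels, and Sertoli-like cells had the fewest UMIs per cell.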
